A study of Mus musculus with 4 samples.

Results

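The genes described here are 8 claudins (Cldn18, Cldn4, Cldn3, Cldn7, Cldn1, Cldn5, Cldn6 and Cldn23) together with Tjp1 and Ocln, which encode the other core proteins of the tight junction. They are 10 of the 32289 counted features, taken by symbol and followed through all 4 libraries across epithelial states, endothelial cells and treatment. Single-cell RNA was measured in lung tumours of mice. All groups shared the alleles p53frt, Rosa-FSF-CreERT2 and Hnf4aflox, in which Flp recombinase deletes p53 and starts the tamoxifen-dependent Cre. Tumours were started with an adenovirus that expresses FlpO under the mSPC promoter, the mouse surfactant protein C promoter, which is active in alveolar type 2 cells. Tamoxifen or vehicle was injected 10 weeks after the virus and tumours were collected 2 weeks after the injection. The labels name the vehicle both as ethanol and as corn oil. Part of every tumour suspension was set aside, and magnetic beads then removed cells carrying CD45 (leukocytes) or CD31 (endothelium) from the rest. Vehicle and tamoxifen, each before and after depletion, made 4 groups of 1 library each. The number of animals or tumours behind a library is not given in the labels. Where 4 values stand in a row they are vehicle before, vehicle after, tamoxifen before and tamoxifen after depletion.

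Tight junctions seal the space between neighbouring cells of an epithelium or endothelium. Claudins are small proteins that cross the membrane several times, and the set of claudins a cell makes decides which ions pass between cells. Occludin is a further membrane protein of the junction, and ZO-1, the product of Tjp1, is the scaffold that ties claudins and occludin to actin. In the alveolus, claudin-18 is best known from type 1 cells, claudin-3 from type 2 cells, and claudin-4 is known to be induced when the alveolar epithelium is injured. Claudin-5 is the main claudin of endothelium.

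There was 1 library per group, so differences carry no measure of how much animals vary, and no p-value was computed. Before and after depletion are portions of the same suspensions and do not replicate each other. The libraries held from 6558 to 7867 barcodes, of which 6111 to 7358 cells were kept, with median depths of 9302, 17733, 9894 and 16484 UMIs per cell. Any pair of libraries shared from 9 to 17 kept barcodes. Epithelial-like cells numbered 1078, 6525, 1085 and 7091, and endothelial-like cells 158, 167, 154 and 123. The 10 epithelial marker genes summed to 70350, 77629, 74613 and 79656 CPM (UMIs scaled to the class total) in the epithelial-like cells, and the 10 endothelial markers to between 23.4 and 28.8 CPM there. Epithelial-like cells were not divided into tumour cells and other epithelium.

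Hnf4a, the floxed gene, went against the treatment label. Its level in epithelial-like cells was 57.4 CPM in the vehicle library and 86.7 CPM in the library labelled tamoxifen before depletion (log2 ratio 0.59). After depletion it was 55.0 CPM and 83.0 CPM (log2 ratio 0.58). Counts from the 3′ end, with labels that do not say which exons the allele removes, do not show whether the gene was deleted. Directions are therefore given for the libraries as labelled.

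Promoter sequence is shown for Cldn18 and Cldn4, abundant members that peaked in different epithelial clusters, and for Cldn3, the neighbour of Cldn4. Cldn4 (chr5:134945119-134946934, minus strand) and Cldn3 (chr5:134986214-134987472, plus strand) lie 39280 bases apart in GRCm38 with 0 annotated genes between them. Cldn18 (chr9:99689461-99717267, minus strand) has 2 promoters, which 3′ counts cannot tell apart. RefSeq's table of gene starts (GRCm38.p6), with 250 bases before and 50 after each start, held 12 promoters for 9 of the 10 members. Each is written 5′ to 3′ on the strand of the gene, at chr9:99717218-99717517 and chr9:99710014-99710313 (minus strand) for Cldn18, chr5:134946885-134947184 (minus strand) for Cldn4 and chr5:134985964-134986263 (plus strand) for Cldn3. Capitals mark matches to the searched motifs.
Cldn18 promoter 1: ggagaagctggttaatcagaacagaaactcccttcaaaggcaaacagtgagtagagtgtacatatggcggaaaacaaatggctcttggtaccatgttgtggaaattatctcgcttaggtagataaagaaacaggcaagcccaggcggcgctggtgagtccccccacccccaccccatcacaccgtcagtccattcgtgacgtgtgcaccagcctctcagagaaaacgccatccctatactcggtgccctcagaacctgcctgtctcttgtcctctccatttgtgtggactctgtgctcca
Cldn18 promoter 2: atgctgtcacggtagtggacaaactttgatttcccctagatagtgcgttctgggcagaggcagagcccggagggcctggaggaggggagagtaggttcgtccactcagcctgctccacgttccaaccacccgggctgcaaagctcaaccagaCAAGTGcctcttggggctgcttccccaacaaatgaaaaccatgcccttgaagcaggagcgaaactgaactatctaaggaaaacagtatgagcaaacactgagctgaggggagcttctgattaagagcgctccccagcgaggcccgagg
Cldn4 promoter: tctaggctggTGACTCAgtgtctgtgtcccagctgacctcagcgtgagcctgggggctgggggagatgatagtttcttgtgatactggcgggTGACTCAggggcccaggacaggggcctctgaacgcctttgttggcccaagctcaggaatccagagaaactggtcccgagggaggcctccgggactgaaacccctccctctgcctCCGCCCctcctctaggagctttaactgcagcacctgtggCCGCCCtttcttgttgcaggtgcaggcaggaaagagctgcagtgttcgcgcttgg
Cldn3 promoter: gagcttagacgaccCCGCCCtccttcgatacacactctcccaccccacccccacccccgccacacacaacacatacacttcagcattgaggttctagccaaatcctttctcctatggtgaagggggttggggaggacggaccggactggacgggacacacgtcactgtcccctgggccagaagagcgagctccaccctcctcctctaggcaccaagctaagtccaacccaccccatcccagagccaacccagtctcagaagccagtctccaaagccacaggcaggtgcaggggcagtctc
The search covered 8 short motifs on both strands, each set beside the share of all 32851 promoters of this length that hold it.

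The AP-1 letters TGANTCA were found in 1 of the 12 member promoters, that of Cldn4, which held them at 2 places, 240 and 158 bases before the start. Of all promoters, 7.81% held this motif. The NKX2-1 letters CAAGTG were found in 3 of 12 (Cldn18 promoter 2, Cldn7 promoter 2 and Cldn1), against 13.6% of all promoters. The TEAD letters GGAATG were found in 2 of 12 (Cldn7 promoter 1 and Cldn6, against 14.7%), and the SP letters GGGCGG in 9 of 12 (against 35.7%). The letters searched for GRHL (AACCNGGTT, 0.271% of all promoters), FOXA (TGTTTAC, 3.65%), HNF4 (CAAAGTCCA, 0.475%) and a TATA box (TATAAA, 13.6%) were in none of the 12. Some of these windows overlap, as both Ocln promoters do. A match says only that the letters are present.

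Levels were taken from UMIs summed over the cells of a class or cluster. Each molecule gives 1 counted end, so the CPM was not divided by length, although genes can still differ in how well their 3′ end is captured. A sum cannot tell fewer cells with a transcript from less transcript per cell. In parentheses after a level stands its exact Poisson 95% interval, which covers counting error only, as do all intervals here.

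Cldn3 and Cldn18 were the most abundant claudins of the epithelial-like class. Cldn3, a barrier-forming claudin of many epithelia, stood at 570, 716, 601 and 673 CPM. Cldn18 stood at 461, 491, 636 and 634 CPM. The order of these genes was not the same in all libraries: Cldn3 was the higher of the pair in both vehicle libraries and after depletion with tamoxifen, while Cldn18 was the higher before depletion with tamoxifen. Cldn7, a claudin that also sits along the lateral membrane, followed at 236, 288, 243 and 272 CPM.

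Cldn4, which restricts sodium passage, stood at 119, 148, 106 and 123 CPM, below those 3 claudins in every library. Ocln was close to it at 142, 144, 100 and 115 CPM, and Tjp1 at 115, 106, 94.5 and 89.3 CPM. Cldn6, a claudin of embryonic epithelia, stood at 67.7, 61.8, 28.3 and 32.7 CPM. In both vehicle libraries Cldn6 was above both tamoxifen libraries. Cldn23 (5.78, 6.57, 0.633 and 1.48 CPM) and Cldn1, the claudin needed for the skin barrier (3.08, 3.68, 1.96 and 2.24 CPM), were low. Cldn5 was at or below 0.534 CPM in all 4. Of UMIs from all 32 claudins, Cldn3 gave 37.9%, 40.8%, 35.9% and 37.4% and Cldn18 gave 30.6%, 27.9%, 38.0% and 35.3%.

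To describe epithelial states, the epithelial-like cells were clustered without any claudin or other junction gene, which gave 15 clusters. Each is called by its leading gene, with a name where marker genes gave one. The other genes of the same cells made these clusters, so levels between clusters are descriptions with no test. Clusters held mostly by 1 library or arm may be that library or arm and not a state. The Bpifa1-led cluster was nearly all tamoxifen, and the Dcpp1-led, Dcn-led and Tmeff2-led clusters were mostly tamoxifen. The Rtkn2-led alveolar type 1-like cluster also held more tamoxifen than vehicle cells (19, 154, 72 and 385). The Agr2-led, Stra8-led and Ecrg4-led clusters were mostly vehicle.

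**Figure D1:**
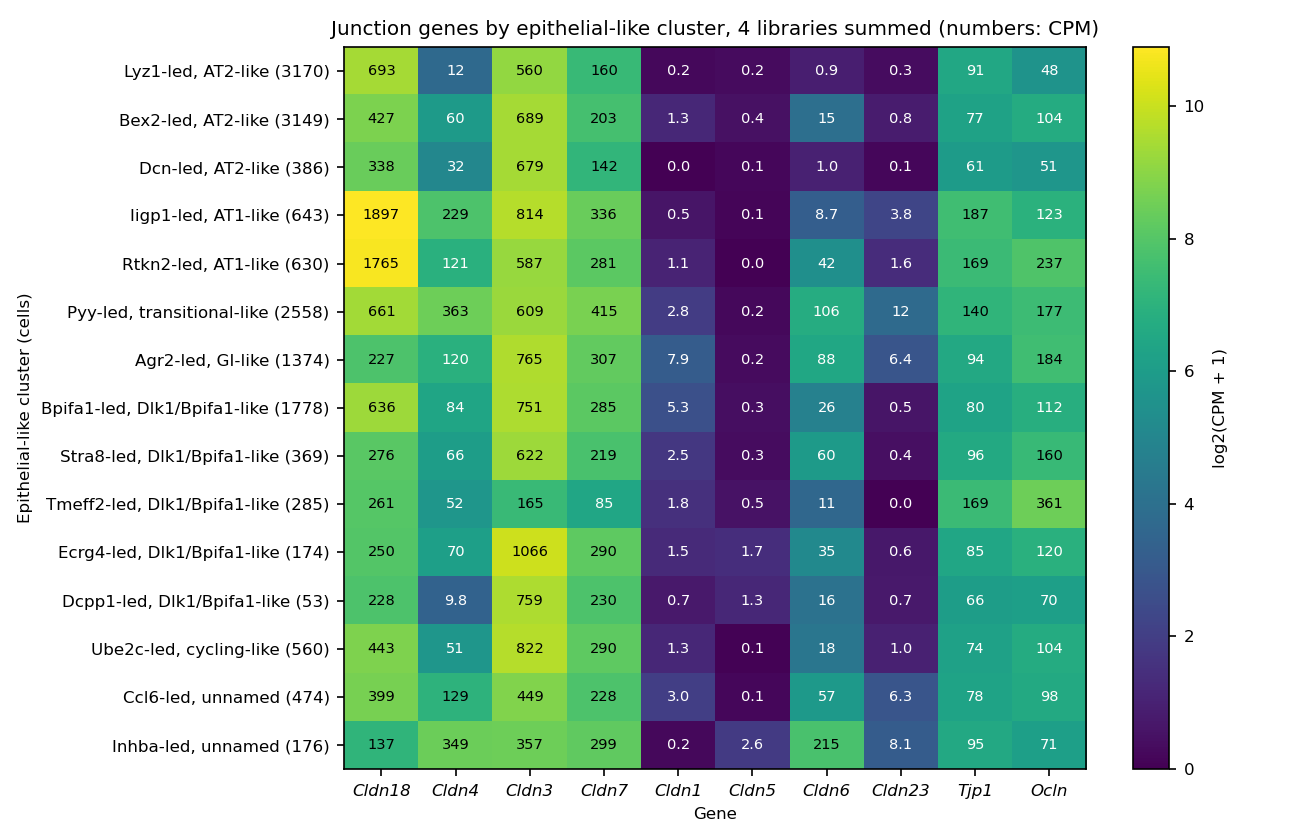
Levels of the 10 members, as log2 of CPM plus 1 over all 4 libraries, in the epithelial clusters, 1 column per member and 1 row per cluster, with the CPM printed in each cell (AT1 and AT2 stand for alveolar type 1 and 2, GI for gastrointestinal). Cldn18 was highest in both alveolar type 1-like clusters (1897 and 1765 CPM), Cldn4 in the Pyy-led and Inhba-led clusters (363 and 349 CPM).

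Cldn18 was highest in the alveolar type 1-like clusters and lowest in the Inhba-led cluster. Over all libraries its level was 1897 CPM (1869 to 1925) in the Iigp1-led and 1765 CPM (1737 to 1793) in the Rtkn2-led alveolar type 1-like cluster. The Iigp1-led cluster (643 cells) had 1 type 1 marker among its leading genes. With junction genes in the clustering and at resolution 1, smaller Iigp1-led clusters (109 and 131 cells) were named alveolar type 2-like. At resolution 1 a Serpinb9-led cluster of 610 cells was named alveolar type 1-like. The Lyz1-led alveolar type 2-like cluster held 693 CPM and the Pyy-led transitional-like cluster 661 CPM. The Agr2-led gastrointestinal-like cluster held 227 CPM and the Inhba-led unnamed cluster 137 CPM, the lowest of the 15. The highest level was 13.8 times the lowest. Within single libraries with at least 50 cells in a cluster, the highest level was 6.66 to 18.9 times the lowest, and an alveolar type 1-like cluster led in each. The value of 18.9, with tamoxifen after depletion, took its lowest level (97.9 CPM) from the Ccl6-led cluster, which immune genes led.

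Cldn4 separated the clusters more widely than Cldn18, with a highest level 37.2 times the lowest. Within single libraries with at least 50 cells in a cluster it was 25.7 to 93.4 times, above Cldn18 in each. When junction genes entered the clustering the Cldn4 value was 22.0 times, and Cldn18 came close to it. Cldn4 stood at 363 CPM (358 to 368) in the Pyy-led cluster and at 349 CPM (334 to 365) in the Inhba-led cluster, so the leading levels overlapped within counting error. The Iigp1-led cluster held 229 CPM, the Rtkn2-led 121 CPM and the Agr2-led 120 CPM. At the low end were the Lyz1-led cluster with 12.2 CPM (11.1 to 13.3) and the Dcpp1-led cluster, of 53 cells, with 9.76 CPM (5.46 to 16.1), whose intervals overlapped. The gap between the Pyy-led and Lyz1-led clusters was seen in every library. In the Pyy-led cluster Cldn4 was at 381, 375, 342 and 348 CPM, and in the Lyz1-led cluster at 4.08, 14.6, 8.21 and 13.4 CPM. The Lyz1-led levels were on 25, 281, 30 and 176 UMIs. Endothelial-like cells, which should lack Cldn4, held 1.07, 2.83, 0 and 8.15 CPM without their clusters led by genes of other classes. The Cldn4 folds thus rest on low levels, and the part of RNA from other cells in them was not tested.

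Cldn6 and Cldn23 stood highest in the Inhba-led and Pyy-led clusters, which also led for Cldn4. Cldn6 was at 215 CPM in the Inhba-led, 106 CPM in the Pyy-led and 87.9 CPM in the Agr2-led cluster, but at 0.903 CPM (38 UMIs) in the Lyz1-led cluster. Cldn23, an unusual claudin with a long tail, reached 12.4 CPM in the Pyy-led, 8.11 CPM in the Inhba-led and 6.40 CPM in the Agr2-led cluster. It was above 10 CPM in 1 cluster. Cldn1 was at most 7.94 CPM, in the Agr2-led cluster.

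Cldn3, Cldn7, Tjp1 and Ocln were spread more evenly. Cldn3 ran from 165 CPM in the Tmeff2-led cluster to 1066 CPM in the Ecrg4-led cluster (6.46-fold), and Cldn7 from 85.3 CPM in the Tmeff2-led to 415 CPM in the Pyy-led cluster (4.87-fold). The Cldn3 span thus set a mostly tamoxifen cluster against a mostly vehicle cluster. Within single libraries with at least 50 cells in a cluster it was 1.39-, 2.63-, 1.46- and 4.98-fold. The Tmeff2-led cluster was shallow, with a median of 6610 UMIs per cell. There Ocln reached its highest level, 361 CPM, followed by 237 CPM in the Rtkn2-led cluster, with the lowest level in the Lyz1-led cluster (47.9 CPM). Tjp1 varied 3.05-fold, from 61.4 CPM in the Dcn-led to 187 CPM in the Iigp1-led cluster, and 2.39-, 5.17-, 3.18- and 3.64-fold within single libraries. The immune-gene-led Ccl6 cluster held the lowest Tjp1 level in both libraries after depletion (35.4 and 55.5 CPM, on 23 and 68 UMIs). It also held the lowest Cldn3 level with tamoxifen before depletion (469 CPM).

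As shares of all claudin UMIs, the clusters had distinct mixes. Cldn18 made up 62.3% of them in the Rtkn2-led and 57.2% in the Iigp1-led alveolar type 1-like cluster. The Lyz1-led cluster was made up of Cldn18 (47.6%) and Cldn3 (38.5%), with 0.836% Cldn4 and 0.062% Cldn6. The Pyy-led cluster held 29.9% Cldn18, 27.6% Cldn3, 18.8% Cldn7, 16.4% Cldn4 and 4.80% Cldn6. No single claudin dominated there. In the Inhba-led cluster Cldn3 (25.7%) and Cldn4 (25.1%) were close, Cldn6 reached 15.5% and Cldn18 was at 9.82%. In the Agr2-led cluster Cldn3 gave 48.6%, and in the Ecrg4-led cluster 60.1%.

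**Figure D2:**
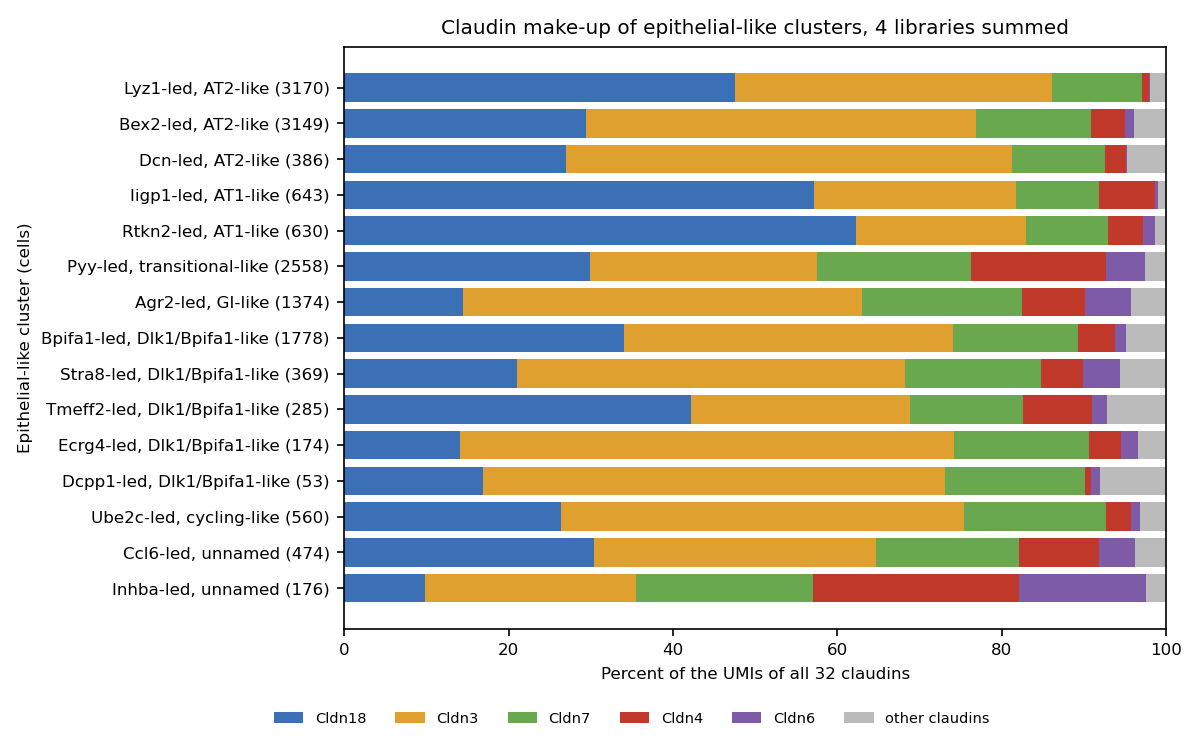
Share of all claudin UMIs, in percent, given by each of 5 claudins and by the others together, in each epithelial cluster (stacked horizontal bars, 4 libraries summed, cells in parentheses). Cldn18 takes 62.3% in the Rtkn2-led cluster and 9.82% in the Inhba-led cluster, where Cldn4 takes 25.1%.

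Shares of cells told the same clusters apart. Cells were thinned to 2000 UMIs each, and 70, 129, 11 and 54 shallower epithelial-like cells were left out. Cldn4 was then seen in 45.7% of Pyy-led, 45.5% of Inhba-led and 2.01% of Lyz1-led cells, and Cldn18 in 91.6% of Iigp1-led, 89.7% of Rtkn2-led and 17.6% of Inhba-led cells. Over the whole epithelial-like class Cldn18 was seen in 52.3%, 53.0%, 59.4% and 59.8% of thinned cells, against 1.31%, 1.84%, 0.667% and 2.48% of endothelial-like cells, which should lack it. Cldn4 was seen in 12.0%, 17.7%, 16.3% and 16.4%, against 0.654%, 0.613%, 0 (0 of 150 cells, which allows up to 2%) and 1.65% of endothelial-like cells. Before depletion the Cldn4 share was higher with tamoxifen while its CPM was lower, so no order between arms is read from it. Without thinning the Cldn4 shares were 39.6%, 51.4%, 51.8% and 50.8%.

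The comparison between treatments asked how the members differed between libraries labelled tamoxifen and vehicle. A gene was called apart when at least 1 library of each pair held 10 CPM or more and the pairs both showed 2-fold or more in 1 direction. This is a rule of size and no test. Of 9038 genes that reached the minimum in epithelial-like cells, 120 (1.33%) were apart, 35 higher and 85 lower with tamoxifen. Of the 10 members 7 reached it, and 0 were apart. The median log2 ratio of those 7 was -0.17 before and -0.25 after depletion, against -0.039 and 0.012 over all genes. Cldn1, Cldn5 and Cldn23 did not reach it.

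Cldn6 came closest to the size rule. Before depletion the vehicle library held 67.7 CPM (64.9 to 70.6) and the tamoxifen library 28.3 CPM (26.6 to 30.1), and after it they held 61.8 CPM (60.5 to 63.1) and 32.7 CPM (31.7 to 33.7). On the log2 scale the tamoxifen to vehicle ratio was -1.23 (exact conditional interval -1.37 to -1.15) before and -0.90 (-0.97 to -0.87) after, so it passed 2-fold in 1 of 2 pairs. A setting that was added once the data had been seen, the same mix of clusters, weighted clusters alike in both arms. It covered only clusters with at least 50 cells in both arms, 4 before and 9 after depletion. The immune-gene-led Ccl6 cluster was kept, and clusters held mostly by the other arm, such as the Bpifa1-led, Ecrg4-led and Stra8-led, were left out. The Cldn6 ratios were then -0.85 and -0.37. The tamoxifen libraries were lower in each case.

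Cldn18 was the 1 of these 7 members that was higher with tamoxifen in both pairs. Its level was 461 CPM (453 to 468) against 636 CPM (628 to 645) before depletion and 491 CPM (487 to 494) against 634 CPM (630 to 639) after. The log2 ratios were 0.47 (0.44 to 0.50) and 0.37 (0.36 to 0.39), below 2-fold. With the same mix of clusters they were 0.33 and 0.13.

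Ocln, Tjp1 and Cldn4 were lower with tamoxifen in both pairs, again below 2-fold. The log2 ratios of Ocln were -0.50 and -0.32, of Tjp1 -0.28 and -0.25, and of Cldn4 -0.17 (-0.23 to -0.10) and -0.26 (-0.30 to -0.24). With the same mix of clusters Ocln was at -0.46 and -0.14, Tjp1 at -0.33 and -0.21, and Cldn4 at -0.095 and -0.046. Cldn3 (0.075 and -0.09) and Cldn7 (0.042 and -0.081) were within 0.1 of 0 and changed sign between the pairs.

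Cldn23 showed the widest epithelial ratio of the members, on few UMIs. It had 184 and 22 UMIs before depletion (5.78 and 0.633 CPM) and 894 and 198 UMIs after (6.57 and 1.48 CPM). The log2 ratios were -2.06 and -1.61 with the pseudocount of 1 CPM, which shrinks ratios of low genes. The exact intervals, computed without it, ran from -3.90 to -2.55 and from -2.38 to -1.93. In the Pyy-led cluster, where it was highest, Cldn23 was at 19.4, 18.9, 2.45 and 5.14 CPM, so both vehicle libraries were above both tamoxifen libraries. Cldn1 was lower in both pairs (-0.47 and -0.53), on 68 to 500 UMIs.

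**Figure D3:**
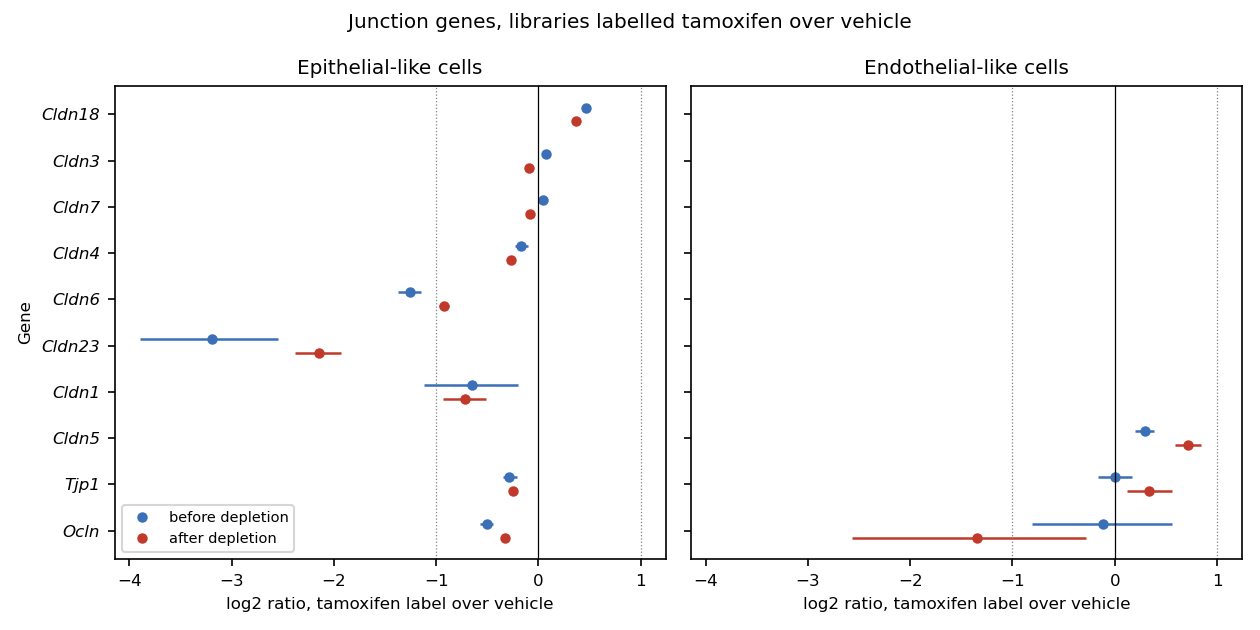
Log2 ratio of tamoxifen over vehicle without a pseudocount, per member and per pair, in epithelial-like and endothelial-like cells. Points are ratios, lines are exact 95% intervals for counting error, and dotted lines mark 2-fold. In epithelial-like cells Cldn23 and Cldn6 lie furthest below 0, and Cldn18 lies above 0 in both pairs.

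Other values moved with the treatment. In epithelial-like cells the 7 neutrophil markers, none at 0, summed to 167 and 101 CPM with vehicle and to 275 and 200 CPM with tamoxifen. Hdc, among these markers, was also a leading gene of a Dlk1-led epithelial cluster of mostly tamoxifen cells at resolution 1. The 10 monocyte or macrophage markers (Ms4a7 at 0 in both libraries after depletion) summed to 293 and 198 CPM with vehicle and to 230 and 183 CPM with tamoxifen. Ly6c2, among these, was also a leading gene of the Bex2-led alveolar type 2-like cluster. The 7 fibroblast markers summed to 19.2 and 23.7 CPM in vehicle libraries and to 47.7 and 49.2 CPM in tamoxifen libraries, with Lum at 0 in both tamoxifen libraries; Dcn, another of them, led an alveolar type 2-like cluster of mostly tamoxifen cells. The part of these cells or RNAs in the member ratios was not tested, apart from 1 measurement. Without the Ccl6-led cluster, which immune genes led (474 cells, median 4317 UMIs), Cldn6 was at -1.31 and -0.90, Cldn18 at 0.48 and 0.38, and Cldn4 at -0.16 and -0.25.

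Within clusters the direction was less uniform. Leaving out the Ccl6-led cluster, 3 clusters before and 8 after depletion had at least 50 cells in both arms. After depletion the interval of Cldn6 was below 0 in 6 of 8 and above 0 in none, with a median log2 ratio of -0.38. The lowest was -1.33, in the cycling Ube2c-led cluster (31.9 CPM with vehicle and 12.1 CPM with tamoxifen). Before depletion it was -1.14 in the Pyy-led but 0.44 in the Bex2-led alveolar type 2-like cluster. In the Pyy-led cluster Cldn6 stood at 166, 118, 74.5 and 84.6 CPM, both vehicle libraries being above both tamoxifen libraries.

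The interval of Cldn18 was above 0 in 2 of 3 clusters before and 5 of 8 after depletion, and below 0 in 1, the Iigp1-led cluster (-0.17). For Cldn4 it was above 0 in 2 of 3 clusters and below 0 in 1 before depletion, with a median of 0.36, where the whole class was at -0.17. Among those above 0 was the Lyz1-led cluster, at 8.21 CPM with tamoxifen and 4.08 CPM with vehicle, on 30 and 25 UMIs. The Pyy-led cluster, with the most Cldn4, was at -0.16. After depletion the Cldn4 interval was above 0 in 1 of 8 (0.36 in the Bex2-led cluster) and below 0 in 2, around a median of -0.033. That of Tjp1 was below 0 in 3 of 3 before and 4 of 8 after, and above 0 in the Iigp1-led cluster (0.34). Ocln was below 0 in 4 and above 0 in 3 of 8. In the Ccl6-led cluster after depletion, Cldn18 (419 against 97.9 CPM) and Cldn4 (163 against 31.8 CPM) were both lower with tamoxifen, at log2 ratios of -2.09 and -2.32. Before depletion the same cluster gave 0.33 (0.22 to 0.45) for Cldn18 and -0.25 (-0.45 to -0.059) for Cldn4.

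**Figure D4:**
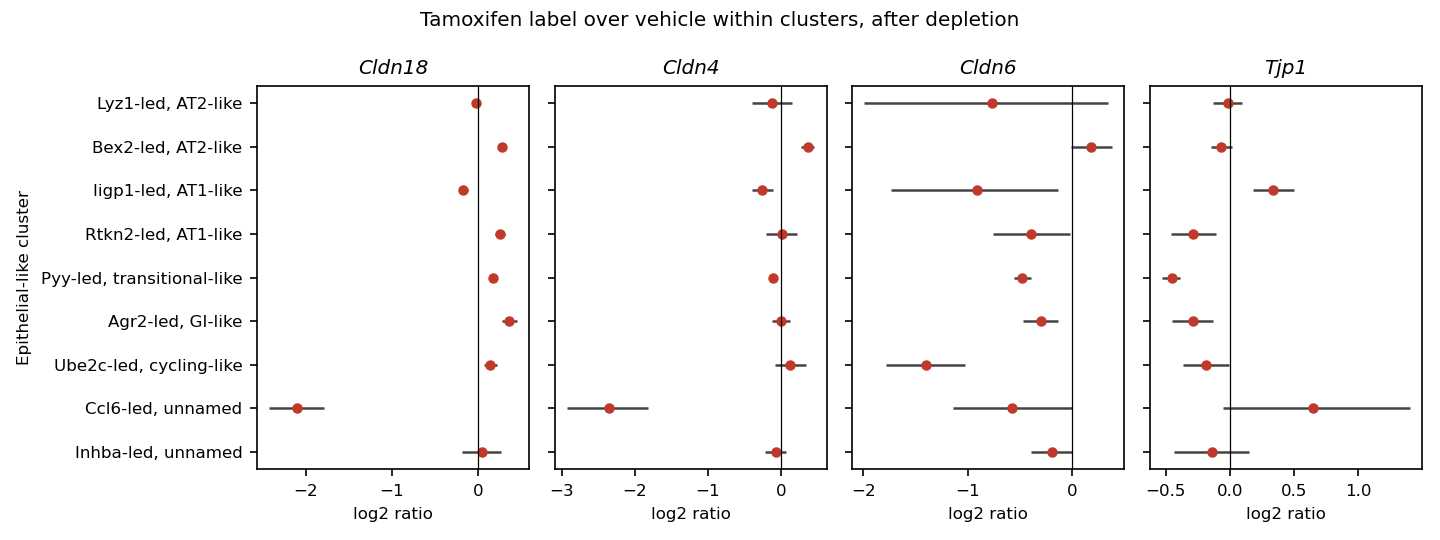
Log2 ratio of tamoxifen over vehicle after depletion, without a pseudocount, for Cldn18, Cldn4, Cldn6 and Tjp1 in 9 epithelial clusters. Points are ratios and lines exact 95% intervals, with a horizontal scale of its own in each panel. Cldn6 lies below 0 in most clusters, and the immune-gene-led Ccl6 cluster stands apart for Cldn18 and Cldn4.

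The comparison after against before depletion gives how far portions of 1 suspension differed. Of 8924 genes tested in epithelial-like cells 36 (0.403%) were apart under the same rule, and 0 of 7 members were. With vehicle the log2 ratio of after over before was 0.33 for Cldn3, 0.31 for Cldn4, 0.28 for Cldn7, 0.091 for Cldn18, 0.016 for Ocln, -0.11 for Tjp1 and -0.13 for Cldn6. With tamoxifen it was 0.16 for Cldn3, 0.21 for Cldn4, 0.16 for Cldn7, -0.0039 for Cldn18, 0.20 for Ocln, -0.082 for Tjp1 and 0.20 for Cldn6. Differences between portions of 1 suspension thus reached 0.33, more than the treatment ratios of Cldn4, Cldn3, Cldn7 and Tjp1. The treatment ratios of Cldn6 and Cldn18 were larger in size in both pairs, and that of Ocln only in the pair before depletion. With the same mix of clusters those of Cldn18 were 0.33 and 0.13. Portions of 1 suspension share their animals, so these differences do not measure how animals of the arms vary.

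In endothelial-like cells Cldn5, the claudin that closes the barrier of brain vessels, stood at 870, 655, 1065 and 1075 CPM. In every other class with at least 20 cells it was at most 4.68 CPM. It gave 87.9%, 81.5%, 93.9% and 88.5% of the claudin UMIs of this class. After thinning, Cldn5 was seen in 59.5%, 48.5%, 64.7% and 66.9% of endothelial-like cells and in 0.0992%, 0.0469%, 0.0931% and 0.0568% of epithelial-like cells. Tjp1 was higher there (304, 249, 305 and 315 CPM) than in epithelial-like cells, and Ocln was lower (19.8, 25.5, 18.3 and 10.0 CPM).

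Small clusters with genes of other cell types were part of this class. Of 9 endothelial clusters, the S100a9-led cluster (21 cells) and the Sftpc-led cluster (15 cells) were led by genes of other classes. The S100a9-led cluster held 1137 CPM of Cldn5 beside these genes. The Sftpc-led cluster held 190 CPM of Cldn5, with 495 CPM of Cldn3, 193 CPM of Cldn18, 180 CPM of Cldn7 and 93.0 CPM of Cldn4. Without both clusters 142, 160, 143 and 121 cells remained. Cldn3 was then 1.07, 19.1, 2.53 and 14.0 CPM, in place of 42.3, 54.7, 35.5 and 63.5 CPM. That is 0.188%, 2.67%, 0.421% and 2.08% of its epithelial level. The surfactant gene Sftpc was at 0.370%, 2.27%, 0.379% and 2.13% of its epithelial level in the same cells. Both were higher after than before depletion.

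Ocln was low in the remaining endothelial-like cells, at 7.52, 3.54, 17.1 and 10.5 CPM, on 14, 5, 27 and 9 UMIs. That is 5.30%, 2.46%, 17.1% and 9.13% of its epithelial level, above the shares of Cldn3 and Sftpc in 3 libraries and between them with vehicle after depletion. Tjp1 was at 325, 267, 323 and 323 CPM, which is 252% to 362% of its epithelial level.

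Endothelial clusters differed in Cldn5. Over all libraries the level was 3428 CPM in the Rgs6-led cluster, an unnamed cluster of 17 cells with Car4 and Tbx2 among its leading genes. It was 1681 CPM in the Hpgd-led and 1001 CPM in the Angpt2-led general capillary-like clusters, 883 CPM in the Ccl21a-led, 734 CPM in the Nts-led artery-like, 602 CPM in the Cd300lg-led general capillary-like and 539 CPM in the cycling Ube2c-led cluster. The Rgs6-led cluster also held the most Tjp1 (445 CPM) and, outside the Sftpc-led cluster, the most Ocln, at 96.8 CPM (46.4 to 178) on 10 UMIs.

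Between treatments, 40 of 8757 genes (0.457%) were apart in endothelial-like cells, and 0 of the 6 members that reached the minimum were. The log2 ratio of Cldn5 was 0.29 (0.20 to 0.38) before and 0.71 (0.59 to 0.84) after depletion. The second value rests on cells that remained after the beads against CD31. Without the clusters led by genes of other classes the ratios were 0.35 and 0.68. Within single clusters the direction of Cldn5 was not uniform. The Ccl21a-led cluster held 943, 628, 1038 and 1029 CPM and the Cd300lg-led cluster 723, 574, 383 and 710 CPM. The Hpgd-led cluster held 1176, 2209, 1638 and 1888 CPM, on 20, 15, 36 and 22 cells. In the Angpt2-led cluster Cldn5 was at 1046 and 1268 CPM before depletion. The part of the cluster mix in the Cldn5 ratios was not tested. Tjp1 was at 0.004 (-0.16 to 0.17) before and 0.34 (0.12 to 0.56) after. Ocln was at -0.11 and -1.27, and at 1.09 and 1.34 without the clusters led by genes of other classes, so its direction turned on few cells. The S100a9-led cluster held 13, 0, 8 and 0 cells and the Sftpc-led cluster 3, 7, 3 and 2.

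Cldn1 was highest in dendritic-like cells. It stood at 109 CPM with vehicle and 92.6 CPM with tamoxifen before depletion, where these cells were numerous enough. In alveolar macrophage-like cells it was at 20.6 and 12.2 CPM, in epithelial-like cells at 3.08 and 1.96 CPM, and in T cell-like cells at 0.351 and 0.99 CPM. It made up 78.8% and 66.3% of the claudin UMIs of dendritic-like cells. Claudins of epithelial-like cells were also counted there. The Siglech-led cluster held 5, 3 and 1 UMIs of Cldn18, Cldn3 and Cldn7 with vehicle and 54, 42 and 58 with tamoxifen. In the Ccl17-led cluster these were 44, 107 and 43 with vehicle and 8, 9 and 5 with tamoxifen. Their part in the difference between the shares was not tested. Of thinned dendritic-like cells 15.4% and 12.3% had a Cldn1 UMI (44.5% and 38.8% unthinned). Of T cell-like cells 0.0889% had one with vehicle and 0 of 668 with tamoxifen, which allows up to 0.449%.

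The level differed between dendritic-like clusters. The cluster led by Wdfy4, which marks type 1 conventional dendritic cells together with Xcr1, held 343 CPM (307 to 382) with vehicle and 260 CPM (230 to 293) with tamoxifen. The Ccl17-led cluster held 106 and 79.6 CPM, the Ccl22-led cluster 37.1 and 45.3 CPM, and the Siglech-led cluster 1.29 and 1.94 CPM. The Wdfy4-led cluster was the highest and the Siglech-led the lowest in both arms. A cycling alveolar macrophage-like cluster led by Top2a held 47.4 and 26.5 CPM.

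**Figure D5:**
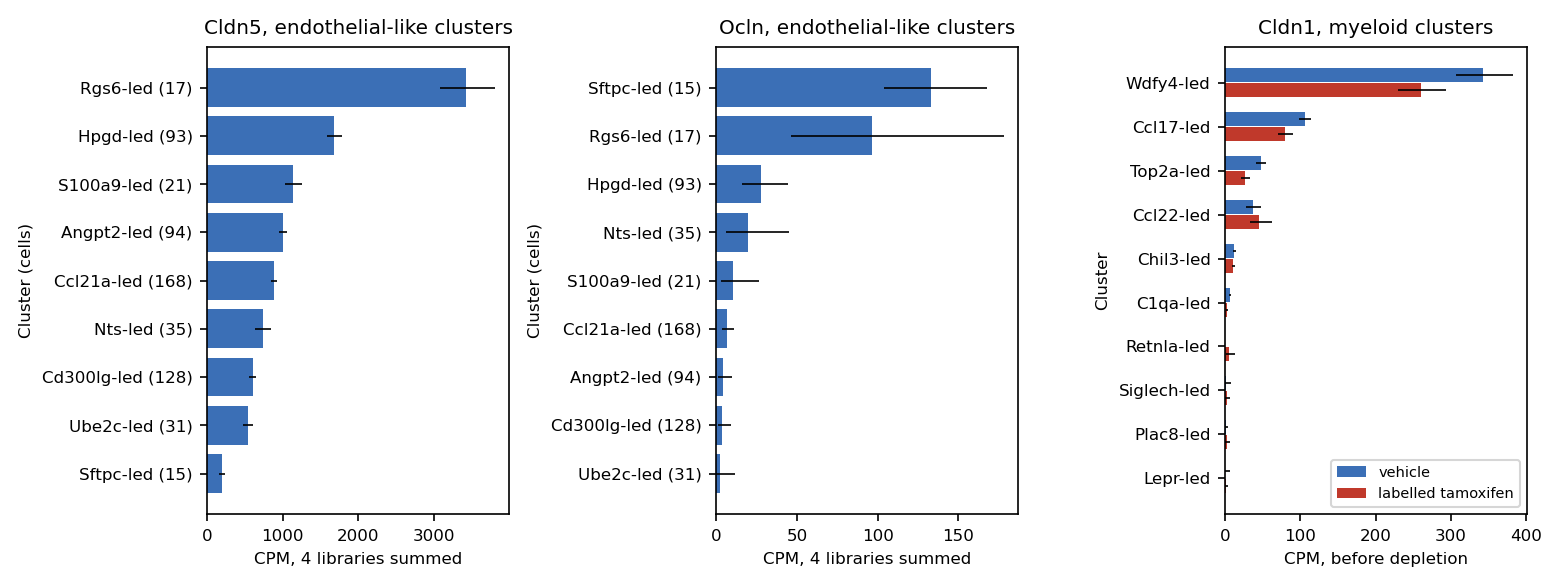
Levels in CPM of Cldn5 and Ocln by endothelial cluster (4 libraries summed) and of Cldn1 by myeloid cluster in both libraries before depletion. Bars start at 0 and lines are exact Poisson 95% intervals. Cldn5 reaches 3428 CPM in the Rgs6-led cluster, and Cldn1 reaches 343 CPM in the Wdfy4-led cluster with vehicle.

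Pairs of members in single cells were described in thinned epithelial-like cells, beside the product of their single shares. Cldn4 and Cldn6 were seen together in 1.79%, 2.61%, 1.30% and 1.83% of cells, where the products were 0.774%, 1.38%, 0.516% and 0.804%. Cldn4 and Cldn7 were seen together in 4.66%, 9.27%, 6.61% and 7.97% (products 3.63%, 6.70%, 5.25% and 6%). Both pairs were above their product in all 4 libraries. Cldn4 and Ocln were too, at 3.77%, 5.53%, 3.72% and 4.02% (products 2.50%, 3.85%, 2.93% and 2.97%). Cldn18 and Cldn4 lay near their product, at 5.95%, 9.08%, 9.96% and 10.2% (products 6.28%, 9.35%, 9.68% and 9.81%). Counts this sparse describe joint detection and no more.

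Genes whose pattern was most like that of a member were ranked by Pearson's r over 36 sums of epithelial cluster and library, among 6456 genes. These sums share libraries, depth and clusters, so r is a description with no p. Nearest to Cldn4 were Krt8 (r = 0.931), S100a14 (0.921), Sfn (0.918), Krt19 (0.914) and Bcl10 (0.895). Krt8, Krt19 and Sfn are among the marker genes used to name clusters. Nearest to Cldn18 were Sec14l1 (0.917), Slc6a14 (0.910), Apbb1 (0.902), Slc44a2 (0.896) and Prkar2a (0.886), and nearest to Cldn7 were Cblc (0.837), R3hdm4 (0.832), Fam114a2 (0.822), Sfn (0.813) and Actg1 (0.809). Among the members, r of Cldn4 was 0.792 with Cldn6, 0.759 with Cldn7, 0.726 with Cldn23, 0.109 with its genomic neighbour Cldn3 and 0.107 with Cldn18. Over 27 sums of class and library, Sox17 (0.991), Robo4 (0.990), Sox7 (0.989), Aplnr (0.987) and Tie1 (0.987) were nearest to Cldn5. Tie1 is an endothelial marker used for naming.

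The wider set of junction genes held 91 genes, of which 55 reached the minimum in epithelial-like cells. Between treatments 1 was higher by the size rule and 0 were lower, against the 1.33% above. That 1 gene was Jam2, a junctional adhesion molecule, which the vehicle libraries held at 5.72 and 5.87 CPM and those labelled tamoxifen at 21.5 and 21.7 CPM (log2 ratios 1.74 and 1.72). Of 32 claudins 7 reached the minimum and 0 were apart, with medians of 0.042 and -0.081. Of 15 tight junction scaffolds 14 reached it (medians -0.22 and -0.073), of 11 further tight junction membrane genes 10 (-0.26 and -0.072), of 16 adherens junction genes 13 (-0.096 and -0.049), of 8 desmosome genes 7 (-0.098 and -0.20) and of 9 gap junction genes 4 (0.10 and -0.075).

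Overlapping genes may limit some of these counts, and close neighbours are given beside them. Cldn18 overlaps the antisense gene Gm16004 and Cldn3 the antisense gene Wbscr25, which were counted too, and the use of strand is not given in the sources used here. Cldn6 (chr17:23679249-23682446) lies 138 bases from Cldn9. Cldn7 (chr11:69964779-69967885) lies 337 bases from Elp5. Cldn6 and Cldn7 overlap no other gene in the annotation. Reads from the overlapping antisense pairs may not be told apart if strand was not used.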

How the data were processed

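The authors deposited raw UMI counts, with no scaling, for the genes and barcodes of 4 libraries. Cell Ranger 7.0.1 wrote them, per the file headers. The submitters' processing notes name Cell Ranger 7.2.0 and the build mm10, and per the labels' protocols the kit was version 3 of the 10x Genomics 3′ chemistry. The annotation release and the use of intronic reads and of strand are not given in the sources used here. Of the 32289 features, 32158 matched GENCODE M21 (GRCm38), which gave the coordinates.

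Barcodes needed 200 detected genes, and those above 20% mitochondrial UMIs were dropped. Scrublet (scanpy 1.11.5) called 188, 1, 1 and 0 doublets by its automatic threshold, which had not worked in 3 libraries, so cells scoring above 0.25 were removed (225, 120, 116 and 153). Leiden clustering (igraph 0.11.9) used 2000 variable genes, 40 components and resolution 1 for all cells. For epithelial-like cells it used 30 components and resolution 0.6, and for endothelial-like cells 20 components and resolution 0.6. Junction genes were left out of it. Names came from fixed marker lists (3 markers, each in 10% of cells) and are given as "X-like".

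Levels are CPM of summed counts with exact Poisson intervals, ratios are log2 with a pseudocount of 1 CPM, and shares have Clopper-Pearson intervals. All are at 95%. A count of 0 allows up to 3 counts. Simulated data, with counting noise only and planted changes larger than the limit of the size rule, were used to try that rule. They hold no variation between animals or in cluster mix, so they cannot show how the rule fares with it. Alternatives covered the pseudocount, scaling (TMM from edgeR 4.0.16, median of ratios), cell and doublet filters, the size rule, the clustering and the thinning.

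Named genes are the 10 members, Hnf4a, junction genes that met the size rule, and the 5 genes most like Cldn4, Cldn18, Cldn7 and Cldn5 with a mean of at least 20 CPM. Cldn2, Cdh2 and Dsc2 were named after their values were seen. The members, lists and markers were chosen with earlier results of these data known. A further allele shared by all groups is not reported here.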

Additional observations from a re-analysis of the deposited data

Results flagged for a closer look

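Cldn3 in epithelial-like cells had log2 ratios of tamoxifen over vehicle with opposite signs in the 2 portions, 0.075 before and -0.09 after depletion. Tjp1 differed between classes: its ratio was -0.28 and -0.25 in epithelial-like cells and 0.004 and 0.34 in endothelial-like cells. With 1 library per group neither difference was tested, and the interval of the endothelial value before depletion (-0.16 to 0.17) spanned 0.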

How the results depend on the processing

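No paired analysis was possible because each group held 1 library. No minimum CPM put 213 genes apart in epithelial-like cells, and a 1.5-fold limit 296, in place of 120. Of the members 1 was then apart in each case, Cldn23 without a minimum and Cldn6 at 1.5-fold. Of the junction genes 3 were apart without a minimum (Cldn23, Jam2 and Cdh2) and 4 at 1.5-fold (Cldn6, Cldn2, Jam2 and Dsc2). Among the 20 epithelial member ratios (10 members, 2 pairs), 16 kept their sign under all 9 alternatives run. The exceptions were Cldn4 (0.018) and Cldn1 (0.13) before depletion with a mean over cells, Cldn7 before depletion (-0.0075) without the Lyz1-led cluster, and Cldn7 after depletion (0.0012) with the same mix of clusters. With a mean over cells, endothelial Cldn5 was at 0.18 and 0.56. Endothelial Ocln after depletion was -1.27 and turned to 0.79 with a mean over cells, 1.17 at a doublet score of at most 0.15 and 1.34 without the clusters led by genes of other classes. The highest over lowest cluster level of Cldn4 was 22.0 when junction genes entered the clustering. That of Cldn18 was then 19.5, and 16.5 at resolution 1. Thinning to 5000 UMIs gave Cldn4 shares of 22.1%, 30.1%, 25.7% and 29.9%, and no thinning 39.6%, 51.4%, 51.8% and 50.8%. The settings without the Ccl6-led cluster, with the same mix of clusters and without clusters led by genes of other classes were chosen after seeing the data. Without replicates, differences between animals cannot be told apart from treatment.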

Other observations

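Outside the 10 members, a few other junction genes were picked out after their values were seen, and these did not meet the size rule. Cldn2, a claudin that lets cations pass, was at 18.6 and 20.5 CPM with vehicle and at 31.9 and 32.4 CPM with tamoxifen in epithelial-like cells. Dsc2, a desmosomal cadherin, was at 8.36 and 8.89 CPM with vehicle and at 15.2 and 14.5 CPM with tamoxifen. Cdh2, which encodes N-cadherin, was at 8.46 and 7.81 CPM with vehicle and at 0.661 and 2.35 CPM with tamoxifen.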
